A study of Mus musculus with 4 samples.

Results

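The general mRNA decay machinery is the set of proteins that shorten poly(A) tails, remove caps, degrade the body of the mRNA from either end and survey translated mRNAs for premature stop codons. Its members were taken by name alone from the table of measured genes: symbols that begin with Cnot, Exosc, Lsm, Smg, Upf, Dcp, Edc or Xrn and a number, together with Pan2, Pan3, Parn, Dis3, Dis3l, Dis3l2, Ddx6, Pabpc1, Pabpc4, Patl1, Btg1, Btg2, Tob1, Tob2 and Dcps. This gave 66 genes of 11111, in 10 groups by role. The rule itself uses names and no measured value. Names are a loose guide to function, since some LSM proteins work in splicing or histone mRNA processing and XRN2 works in the nucleus.

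RNA sequencing measured their transcripts in mouse bone marrow-derived macrophages, which are macrophages grown in culture from bone marrow cells, here of C57BL/6 mice. Cells of both groups were cultured for 7 days with new medium on day 4, received a morpholino at 2 µM with the delivery peptide Endoporter at 6 µl/ml for 24 hours, and were then stimulated with lipopolysaccharide (LPS), a component of bacterial outer membranes, at 10 ng/ml for 4 hours. The Ctrl MO group (2 libraries) received a control morpholino and the Reg1-MOs group (2 libraries) received morpholinos against Regnase-1. A morpholino is an antisense oligomer with a modified backbone. It blocks the stretch of RNA it pairs with and does not lead to cleavage by RNase H. The group name Reg1-MOs does not state whether Regnase-1 rose or fell. In the table, the headers of the Reg1-MOs libraries read MO1 and MO2. The labels use these same names for the targeting morpholinos, and do not settle whether a library received 1 of them or both. No unstimulated cells were included, so every level below is a level after LPS. Nothing in the labels says that replicates are separate mice or cultures. The p-values thus reflect the spread among these libraries alone, and that spread may be technical.

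In the cytoplasm, most mRNAs begin to decay when the CCR4-NOT and PAN2-PAN3 deadenylases shorten the poly(A) tail. The shortened mRNA is then decapped by DCP2 with its activators and digested from the 5′ end by XRN1, or it is digested from the 3′ end by the exosome. The UPF and SMG proteins carry out nonsense-mediated decay of mRNAs with premature stop codons. Regnase-1 (gene Zc3h12a) is an RNase known to cut stem-loops of inflammatory mRNAs in macrophages, together with the helicase UPF1 on translated mRNAs. Roquin and tristetraprolin, other repressors of inflammatory mRNAs, recruit CCR4-NOT.

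The comparison asks which transcripts differ when Regnase-1 is targeted. Reads in the table summed to 23369753 to 25213695 per library, and the median gene had 404 to 437. Zc3h12a, the targeted gene, had levels of 179 and 187 with Ctrl MO against 403 and 380 with Reg1-MOs. Its transcript thus rose, by 1.096 on the log2 scale (SE 0.068, limma adjusted p = 0.000401). Regnase-1 protein was not measured, so these libraries do not show whether the protein rose or fell. Levels are in normalised CPM, the deposited value brought back to a linear scale, and include the authors' scaling and offset of 0.5 reads. Of 10 macrophage markers, 10 were in the table, with a summed level of 21065 to 21166 with Ctrl MO and 19226 to 19320 with Reg1-MOs. Lyz2 made up the largest share of that sum and fell by 0.27 on the log2 scale, Itgam fell by 0.67 and Cd68 rose by 0.34, and 7 of the 10 had an unadjusted p under 0.05. Of 8 neutrophil markers 7 were listed and none passed the test (2 with unadjusted p under 0.05), at summed levels of 411 and 465 with Ctrl MO against 432 and 331 with Reg1-MOs, and of 4 mast cell markers 1 was listed, Kit, which fell. None of 6 dendritic cell, 6 lymphocyte or 4 erythroid markers was listed. Of 8 stromal markers 6 were listed and all 6 fell, with a summed level of 181 and 188 against 76.2 and 85.9. In such bulk RNA, fewer cells of a type and less RNA per cell cannot be told apart, and the part of the stromal markers in the values below was not tested.

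The decay machinery was nearly level between the groups. By limma's moderated test over all 11111 genes with Benjamini-Hochberg adjustment at 0.05, 1 of 66 members rose, Pabpc4, and 0 fell. Of all genes, 12.2% were called, 6.22% higher and 6.03% lower with Reg1-MOs, against 1.52% of the members. Without adjustment, 8 members had p under 0.05 (5 higher and 3 lower), 12.1% of the set beside 29.4% of all genes. The median log2 fold change (Reg1-MOs over Ctrl MO) of the members was 0.0090, beside -0.026 for all genes, with 34 members above 0 and 32 below.

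The sizes of the differences were small. The members ran from -0.50 (Cnot6) to 0.42 (Pabpc4) on the log2 scale, with quartiles of -0.12 and 0.085. The median absolute difference was 0.10, beside 0.17 for all genes, while the median standard error was 0.11 in both sets. No member reached a 1.5-fold difference, which 9.53% of all genes did. All genes include 1635 with a mean under 50 reads. Of the genes with at least 50, 6.08% reached it, and their median absolute difference was 0.16. The 95% interval lay inside a 1.5-fold change in either direction for 55 of 66 members (83.3%) and for 65.6% of all genes, and inside a 2-fold change for 66 of 66 members and 87.4% of all genes. A 2-fold change thus lay outside the interval of every one of the 66 transcripts, each taken alone, while a 1.5-fold change lay within some of them. The members had a mean of 43.0 (Lsm7) to 18584 reads (Pabpc1) per library, a median of 494 and 1 member under 50. Their reads summed to 3893 and 4011 CPM of the table reads with Ctrl MO against 3722 and 4023 with Reg1-MOs, so the groups overlapped.

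**Figure D1:**
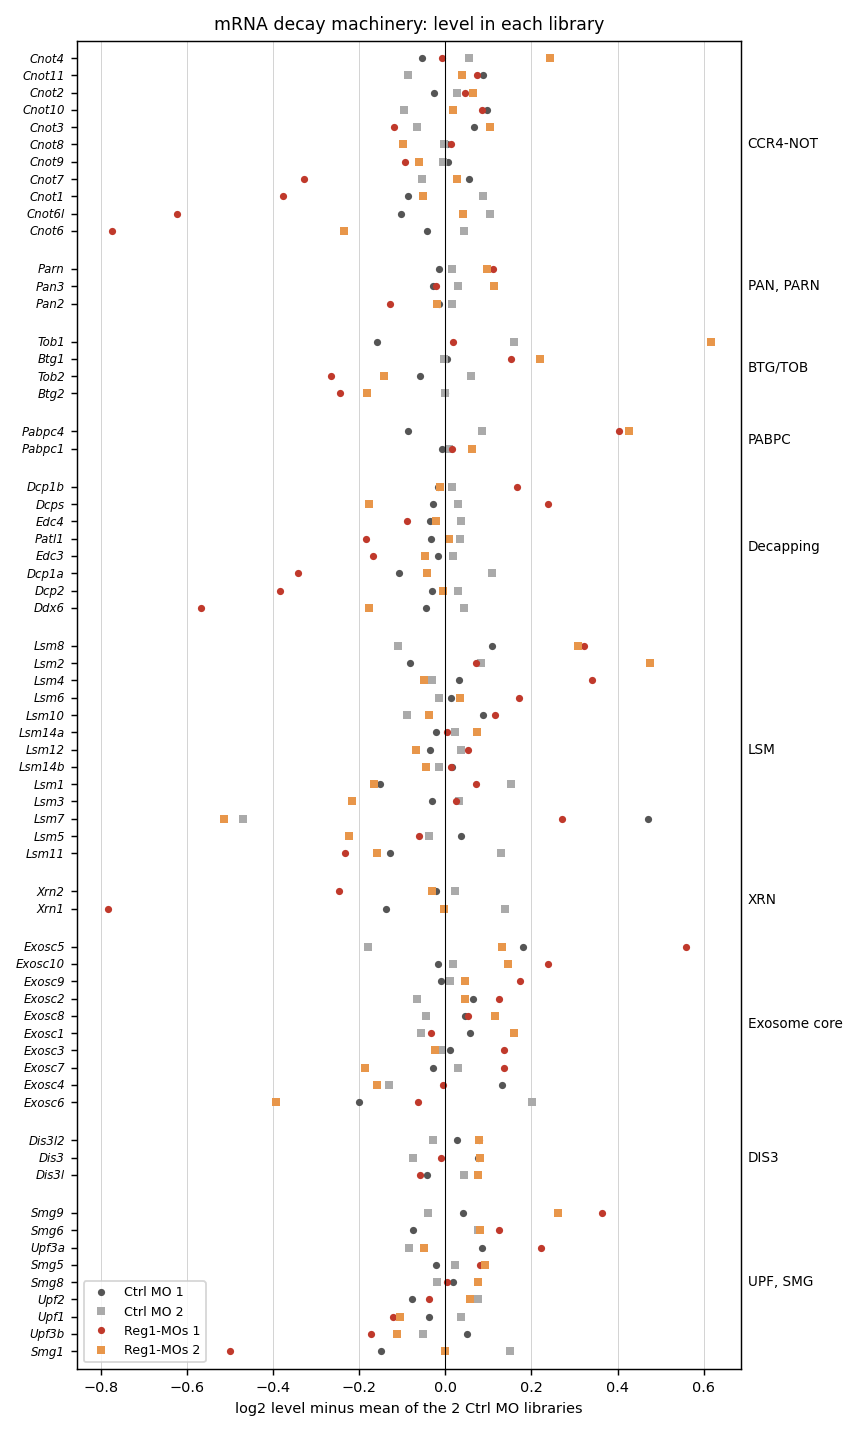
Level of each of 65 members in each of the 4 libraries, as the log2 level minus the mean of the 2 Ctrl MO libraries; members are grouped by role and ordered by fold change. Most points lie within 0.25 of 0; the circles of Reg1-MOs 1 stand apart to the left for Cnot6, Cnot6l, Ddx6, Xrn1 and Smg1, and both Reg1-MOs points of Pabpc4 lie near 0.4.

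**Figure D2:**
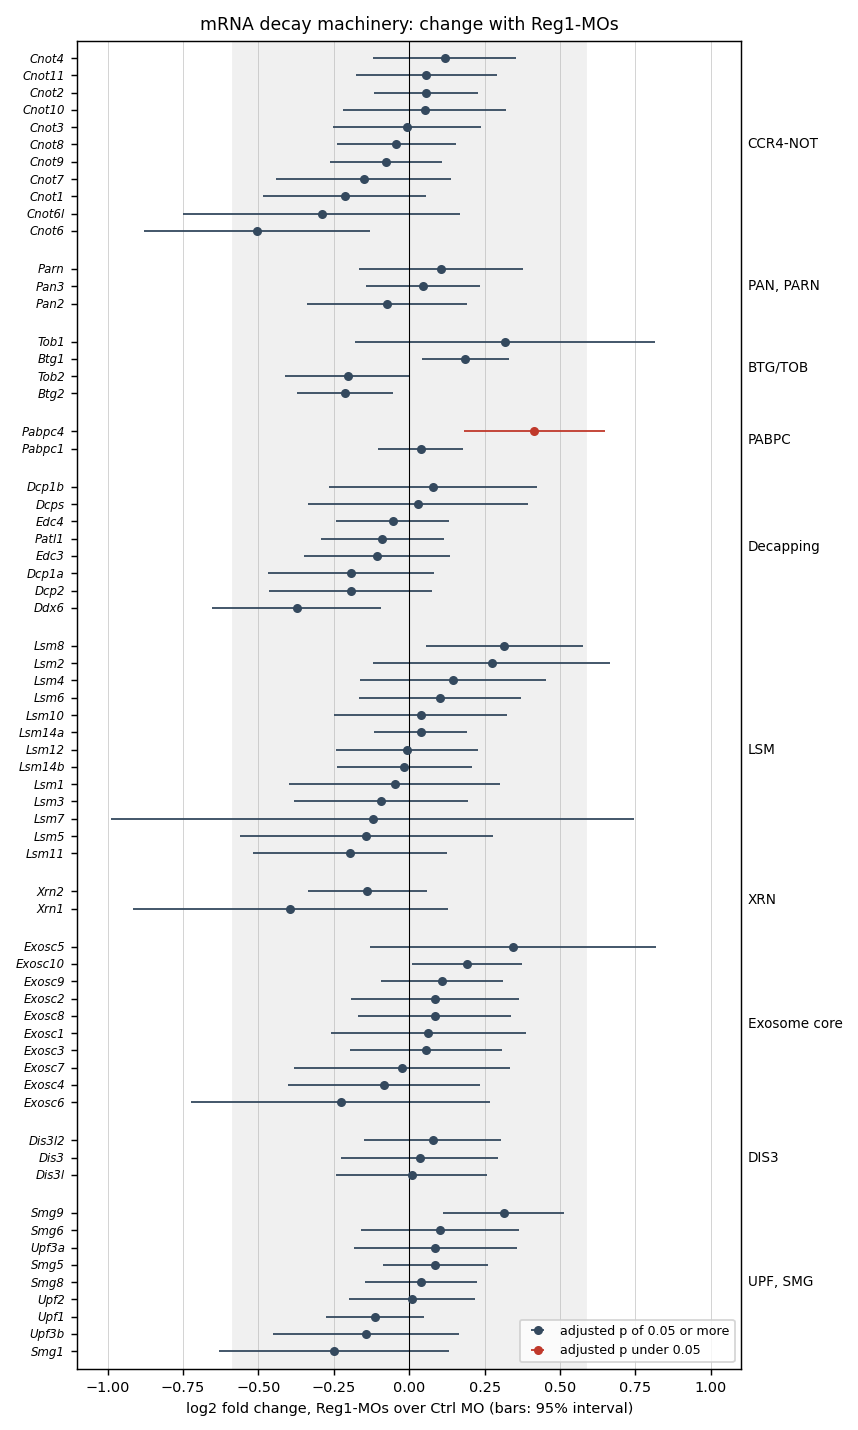
Log2 fold change of 65 members, each with its 95% interval from limma (2 libraries per group); the shaded band marks a 1.5-fold change in either direction. Pabpc4 is the 1 member past the adjusted threshold, and 54 of the 65 intervals drawn lie inside the band.

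Cytoplasmic poly(A)-binding proteins coat the poly(A) tail, link it to translation and set how deadenylases reach it. Pabpc4 (ENSMUSG00000011257; chromosome 4, 123262351 to 123298925, plus strand, GRCm38) was the member that rose. Its level was 17.1 and 19.2 in the Ctrl MO libraries and 24.0 and 24.3 in the Reg1-MOs libraries, from 325, 366, 464 and 432 reads. Both Reg1-MOs libraries were above both controls, for a log2 difference of 0.42 (SE 0.10, limma adjusted p = 0.0382). The call ended without any 1 of the 4 libraries, at adjusted p-values of 0.275 and 0.0642 without Ctrl MO replicates 1 and 2 and of 0.119 and 0.0932 without Reg1-MOs replicates 1 and 2, and at 0.101 without a variance trend. Pabpc1, the main poly(A)-binding protein of most cells, had levels of 969 and 981 with Ctrl MO against 985 and 1017 with Reg1-MOs, for a log2 difference of 0.04 (SE 0.06, 95% interval -0.10 to 0.18). How the counting treated reads that Pabpc1 shares with near-identical copies is not given. Per length, in RPKM (reads per kb of annotated exon, scaled to the table reads of the library), Pabpc1 stood at 269 and Pabpc4 at 5.07, averaged over the 4 libraries, so the transcript that rose was the minor one of the pair. The difference between the fold changes of the 2 genes was not tested.

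CCR4-NOT is the main deadenylase of the cytoplasm, built on the scaffold CNOT1. None of its 11 measured subunits passed the threshold (limma, 1 with unadjusted p under 0.05), and the median log2 fold change was -0.043, with 4 above 0 and 7 below. The summed level of the 11 was 554 and 580 with Ctrl MO against 482 and 568 with Reg1-MOs, so that only Reg1-MOs 1 stood below the others. Cnot1 itself followed the same order, at 152 and 172 with Ctrl MO against 125 and 156 with Reg1-MOs.

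The nuclease subunits come in paralogue pairs, of which 1 from each pair sits in a complex. Cnot6 (ENSMUSG00000020362; chromosome 11, 49671503 to 49712723, minus strand), a CCR4-type nuclease, had the lowest fold change of the 66 members. Its level was 53.4 and 56.7 with Ctrl MO against 32.2 and 46.7 with Reg1-MOs, for a log2 difference of -0.50 (SE 0.16, limma adjusted p = 0.0826). The groups did not overlap, but the Reg1-MOs libraries differed from each other by more than the second of them differed from the controls. Its paralogue Cnot6l stood at 40.0 and 46.1 with Ctrl MO against 27.9 and 44.2 with Reg1-MOs, and here only Reg1-MOs 1 lay below the controls (-0.29, SE 0.20, adjusted p = 0.367). Of the CAF1-type nucleases, Cnot7 was at 43.4 and 40.2 with Ctrl MO against 33.3 and 42.6 with Reg1-MOs. Cnot8 was at 37.9 and 37.8 with Ctrl MO against 38.2 and 35.4 with Reg1-MOs. For both, the groups overlapped, at log2 fold changes of -0.15 (SE 0.12) and -0.04 (SE 0.08). Per length, Cnot8 stood at 13.6 RPKM, Cnot7 at 7.95, Cnot6 at 6.30 and Cnot6l at 3.43, with SDs over the 4 libraries of 0.62, 0.82, 1.37 and 0.66. Each step in that order was larger than the SD of either gene. These SDs, here and below, measure spread between libraries of both groups and not the effect of the exon length used.

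Apart from the scaffold Cnot1, at a log2 fold change of -0.21 (SE 0.12), the structural subunits lay close to 0. Cnot2 (log2 fold change 0.06), Cnot3 (-0.0074), Cnot9 (-0.08), Cnot10 (0.05) and Cnot11 (0.06) all lay within 0.1 of 0, and Cnot4, a ubiquitin ligase that associates with the complex, was at 0.12. The groups did not overlap for Cnot2, which was higher, or for Cnot9, which was lower, with Reg1-MOs, at differences of 0.06 and -0.08. Reads of Cnot1, Cnot2, Cnot3 and Cnot7 fall partly on exons shared with other annotated genes, mostly on the opposite strand, and the strand setting of the counting is not given.

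PAN2-PAN3 trims long tails at an early stage and PARN is a further deadenylase with many substrates in the nucleus. None of the 3 transcripts passed (limma, 0 with unadjusted p under 0.05). Pan3, which tethers the complex to the tail, had levels of 64.6 and 67.3 with Ctrl MO against 65.0 and 71.3 with Reg1-MOs. Pan2, the catalytic subunit, had 10.3 and 10.5 against 9.52 and 10.3. Parn had 8.20 and 8.37 against 8.95 and 8.86. The 3 log2 fold changes were 0.05, -0.07 and 0.10. Per length, Pan3 was at 8.80 and Pan2 at 1.75 RPKM.

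BTG and TOB proteins bind the CAF1-type nucleases and bring deadenylase to poly(A)-binding protein or to other RNA-bound factors. They are known as genes that restrain proliferation. None of the 4 passed the threshold (limma, 2 with unadjusted p under 0.05), yet the close paralogues Btg1 and Btg2 stood apart in opposite directions. Btg1 (ENSMUSG00000036478; chromosome 10, 96617006 to 96622809, plus strand) had levels of 539 and 537 with Ctrl MO against 598 and 627 with Reg1-MOs, for a log2 difference of 0.19 (SE 0.06, limma adjusted p = 0.0947). Btg2 (ENSMUSG00000020423; chromosome 1, 134075170 to 134079120, minus strand), known as a p53 target, had 137 and 137 with Ctrl MO against 116 and 121 with Reg1-MOs, for a log2 difference of -0.21 (SE 0.07, limma adjusted p = 0.0826). In neither gene did the groups overlap, and in both the spread within a group was smaller than the gap between the groups. With quantile normalization Btg1 passed (0.23, adjusted p = 0.0432). The opposite order of these 2 genes was noticed after their values were seen, and the difference between them was not tested.

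Btg1 and Btg2 were the 1 paralogue pair of the set in which both genes had groups without overlap, in opposite directions. Groups without overlap were common: 27.1% of all genes were higher in this way and 31.8% lower. Whether 1 such pair is more than these shares alone would give was not tested. Neither gene passed the adjusted threshold in the main test. The promoters of the pair are shown as a description only. They are the 250 bases before the RefSeq start, on GRCm38.p6 and read 5′ to 3′ on the strand of the gene, with the motifs found by a search of both strands in capitals. The motifs searched were the CCAAT box (CCAAT, which reads ATTGG on the other strand), the TATA box (TATAAA), the cAMP response element (TGACGTCA) and the core of the antioxidant response element (TGACNNNGC); none of the occurrences marked here overlaps another.
Btg1, chr10:96616751-96617000, plus strand: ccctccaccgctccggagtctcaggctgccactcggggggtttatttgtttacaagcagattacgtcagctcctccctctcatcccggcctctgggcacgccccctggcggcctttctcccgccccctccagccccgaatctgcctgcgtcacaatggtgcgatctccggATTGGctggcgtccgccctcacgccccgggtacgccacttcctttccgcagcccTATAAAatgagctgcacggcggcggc
Btg2, chr1:134079156-134079405, minus strand: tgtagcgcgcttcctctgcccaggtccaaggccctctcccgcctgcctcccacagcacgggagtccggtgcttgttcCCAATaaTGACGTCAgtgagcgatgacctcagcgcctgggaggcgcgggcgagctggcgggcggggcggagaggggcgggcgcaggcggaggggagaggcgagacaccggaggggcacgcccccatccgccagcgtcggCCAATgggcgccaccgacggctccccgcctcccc
In the Btg1 window a CCAAT box on the opposite strand begins 80 bases before the start and a TATA box 26 bases before it. The Btg2 window has CCAAT boxes at 173 and 34 bases before the start, with a cAMP response element at 166 bases, and none of the other motifs. GC content was 65.2% and 73.2%.

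These matches are letters in a window and not tested sites. RefSeq promoters matched 55 of the 66 members, with 65 promoters between them. The CCAAT box was in 21 of the 65 (32.3%) and in 33.8% of all 32851 promoters. TATAAA was in 3 of 65 (4.62%; Btg1, Pabpc4 and Tob1), beside 12.4% of all promoters. The full cAMP response element was in 2 of 65 (3.08%; Btg2 and Lsm2), beside 1.55%, and the antioxidant response core in 7 of 65 (10.8%), beside 10.2%.

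The TOB genes gave wider intervals. Tob2 was at 45.8 and 49.8 with Ctrl MO against 39.7 and 43.3 with Reg1-MOs, lower without overlap (-0.20, SE 0.09, limma adjusted p = 0.175). Tob1 was at 6.00 and 7.48 against 6.79 and 10.3, with the groups overlapping (0.32, SE 0.21). Per length the order was Btg1 (83.7 RPKM), Btg2 (35.7), Tob2 (8.24) and Tob1 (2.55), and each step was larger than the SDs over the 4 libraries (7.04, 2.72, 0.67 and 0.60). An antisense gene overlaps Tob2 exons.

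Decapping is carried out by DCP2, with DCP1, EDC3, EDC4, PATL1 and the helicase DDX6 as activators, while DCPS clears the freed cap after decay from the 3′ end. None of the 8 passed (limma, 1 with unadjusted p under 0.05), at a median log2 fold change of -0.098, with 2 above 0 and 6 below. The summed level was 1004 and 1064 with Ctrl MO against 788 and 988 with Reg1-MOs, so that Reg1-MOs 1 stood well below the other libraries and Reg1-MOs 2 just below the controls.

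Ddx6 (ENSMUSG00000032097; chromosome 9, 44604892 to 44640731, plus strand), which also represses translation and is needed for P-bodies, had levels of 330 and 350 with Ctrl MO against 229 and 300 with Reg1-MOs. Both Reg1-MOs libraries were below both controls (-0.37, SE 0.12, limma adjusted p = 0.0862). Dcp2 had 446 and 465 with Ctrl MO against 349 and 453 with Reg1-MOs, and Reg1-MOs 2 lay between the controls (-0.19, SE 0.12). Dcp1a showed the same order, at 76.1 and 88.4 against 64.7 and 79.6. Its paralogue Dcp1b was at 4.80 and 4.91 against 5.44 and 4.81. Per length, Ddx6 (38.2 RPKM) and Dcp2 (37.7) were at about the same level, within their SDs of 6.16 and 4.13, followed by Dcp1a at 10.6 and Dcp1b at 1.15. Edc3 (-0.11), Edc4 (-0.06), Patl1 (-0.09) and Dcps (0.03) completed the group.

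LSM1 to LSM7 form a ring that binds deadenylated 3′ ends and promotes decapping, and LSM8 replaces LSM1 in the nuclear ring that binds U6 RNA. None of the 13 LSM transcripts passed (limma, 1 with unadjusted p under 0.05), and their median was -0.0072. Lsm8 had 16.0 and 13.7 with Ctrl MO against 18.5 and 18.3 with Reg1-MOs, without overlap (0.31, SE 0.11, limma adjusted p = 0.109). Lsm1 had 8.78 and 10.8 against 10.2 and 8.70, with overlap. The other ring members Lsm2 to Lsm7 ran from -0.14 (Lsm5) to 0.27 (Lsm2). Lsm14a, a P-body protein that binds DDX6, was at 209 and 215 against 212 and 223, and Lsm14b at 17.8 and 17.4 against 17.8 and 17.1. Per length, Lsm14a was at 55.9 RPKM and Lsm14b at 4.64. Lsm10 (0.04) and Lsm11 (-0.20), of the U7 particle that processes histone mRNA, and Lsm12 (-0.0072) also did not pass.

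XRN1 digests decapped mRNA from the 5′ end in the cytoplasm, and XRN2 does so in the nucleus, where it helps to end transcription. Xrn1 (ENSMUSG00000032410; chromosome 9, 95954760 to 96057803, plus strand) had levels of 116 and 141 with Ctrl MO against 74.2 and 127 with Reg1-MOs. One Reg1-MOs library was far below the controls and the other lay between them, so the fold change of -0.39 had an SE of 0.22 (limma adjusted p = 0.288). Xrn2 was at 280 and 289 against 240 and 279 (-0.14, SE 0.08, adjusted p = 0.316; 0 of the 2 had an unadjusted p under 0.05). Per length, Xrn2 was at 60.7 RPKM and Xrn1 at 8.36.

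The exosome degrades RNA from the 3′ end. Its barrel and cap (EXOSC1 to EXOSC9) have no nuclease activity in mammals, which lies in EXOSC10 and the DIS3 proteins. None of the 10 core transcripts passed (limma, 1 with unadjusted p under 0.05), with 7 above 0 and 3 below and a median of 0.073. The summed level was 153 and 151 with Ctrl MO against 170 and 158 with Reg1-MOs. Exosc10, the nuclear exonuclease, was at 50.8 and 52.0 with Ctrl MO against 60.6 and 56.8 with Reg1-MOs, without overlap (0.19, SE 0.08, limma adjusted p = 0.152). Exosc8 and Exosc9 were also higher without overlap of the groups, at 0.08 and 0.11. On the opposite strand, exons of Supt20 overlap those of Exosc8, exons of Ccna2 those of Exosc9 and exons of Tmem91 those of Exosc5. Exosc5 was at 4.74 and 3.70 against 6.17 and 4.59, from 70 to 119 reads, with the groups overlapping. Exosc6 (-0.23, SE 0.21) has its annotated exon inside exons of Aars on the same strand, so that its reads cannot be told apart from those of Aars.

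The 3 DIS3 nucleases were nearly level between groups (limma, 0 with unadjusted p under 0.05). Dis3, the nuclear catalytic subunit, had 13.7 and 12.4 with Ctrl MO against 12.9 and 13.8 with Reg1-MOs. Dis3l, the cytoplasmic subunit, had 14.1 and 15.0 against 13.96 and 15.3. Dis3l2, which degrades uridylated RNA without the exosome, had 16.2 and 15.6 against 16.7 and 16.7. The 3 log2 fold changes were 0.04, 0.0083 and 0.08, with 95% intervals that reached from -0.24 to 0.31 between them. Per length they ranged from 1.96 (Dis3) through 2.65 (Dis3l) to 3.96 (Dis3l2) RPKM.

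In nonsense-mediated decay the kinase SMG1, held by SMG8 and SMG9, phosphorylates UPF1, which UPF2 and UPF3 activate. SMG6 then cuts the mRNA, or SMG5 helps to bring the deadenylation and decapping enzymes. None of the 10 transcripts passed (limma, 1 with unadjusted p under 0.05), at a median of 0.025, with 6 above 0 and 4 below. Upf1, the helicase with which Regnase-1 acts, was at 103 and 109 with Ctrl MO against 97.4 and 98.4 with Reg1-MOs, for a log2 difference of -0.11 (SE 0.07, 95% interval -0.28 to 0.05, limma adjusted p = 0.325). The groups did not overlap, but the gap between the nearest libraries of the 2 groups was smaller than that between the controls. Upf1 exons overlap those of Cers1 and Gdf1 on the opposite strand.

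Smg9 (ENSMUSG00000002210; chromosome 7, 24399619 to 24422778, plus strand) came closest to the threshold among the other members. It had 35.5 and 33.6 with Ctrl MO against 44.4 and 41.4 with Reg1-MOs, without overlap (0.31, SE 0.09, limma adjusted p = 0.0547), and passed when libraries were scaled to equal totals (adjusted p = 0.0465). Smg8, its partner, was at 43.7 and 42.6 against 43.3 and 45.5, with overlap (0.04, SE 0.08). The kinase Smg1 itself was at 239 and 294 against 188 and 265 (-0.25, SE 0.16, limma adjusted p = 0.351). Of the decay effectors, Smg5 was at 51.6 and 53.2 against 55.4 and 55.8, and Smg6 at 10.98 and 12.2 against 12.6 and 12.2. Their log2 fold changes were 0.09 and 0.10.

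The UPF1 cofactors were close to level. Upf2 stood at 41.5 and 46.2 against 42.7 and 45.6, Upf3a at 35.4 and 31.5 against 39.0 and 32.3, and Upf3b at 6.84 and 6.38 against 5.86 and 6.11. The groups overlapped for Upf2 and Upf3a and not for Upf3b, at log2 fold changes of 0.0098, 0.09 and -0.14. Per length, Upf3a was at 12.9 and Upf3b at 2.05 RPKM, and Smg6 was lower at 1.57.

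**Figure D3:**
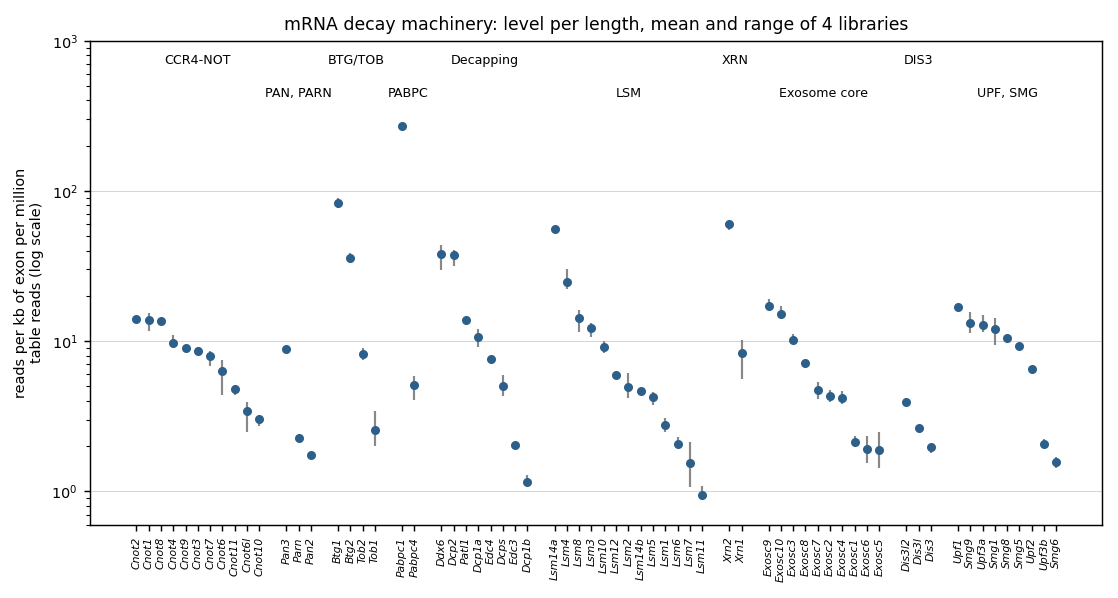
Mean level per length of 65 members over the 4 libraries, in RPKM of the table reads on a log axis, with the range of the libraries as bars. Pabpc1 is highest at 269, followed by Btg1 at 83.7 and Xrn2 at 60.7, and Lsm11 is lowest at 0.95; paralogues such as Pabpc1 and Pabpc4 or Lsm14a and Lsm14b stand far apart.

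Over all roles, 14 members were higher and 12 lower with Reg1-MOs without overlap of the groups, and 40 overlapped. In the whole table, 27.1% of genes were higher without overlap and 31.8% lower, 58.9% in all, beside 39.4% of the members. The 2 Reg1-MOs libraries were not alike in this set. Reg1-MOs 1 stood below the mean of the controls by 0.78 for Xrn1, 0.77 for Cnot6, 0.62 for Cnot6l, 0.57 for Ddx6, 0.50 for Smg1 and 0.38 for both Dcp2 and Cnot1, on the log2 scale. For the same 7 genes Reg1-MOs 2 stood at -0.24 for Cnot6 and -0.18 for Ddx6, and between -0.05 (Cnot1) and 0.04 (Cnot6l) for the others.

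The 7 genes were picked after their values were seen, and all are among the 16 members with exons of over 5000 bases. Exon length, the union of annotated exons, ran from 512 bases (Lsm5) to 15557 (Smg1), with a median of 3208. For these 16 long members, the median difference of Reg1-MOs 1 from the control mean was -0.30, with 14 of 16 below 0. That of Reg1-MOs 2 was -0.0020, with 9 of 16 below 0. For the 16 members under 2000 bases the medians were 0.13 for Reg1-MOs 1 and -0.044 for Reg1-MOs 2. Across the 66 members, which share their libraries and are not replicates, the difference of Reg1-MOs 1 had a Pearson correlation with log2 exon length of -0.62 (Spearman -0.63), and that of Reg1-MOs 2 of 0.10 (Spearman 0.098).

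The slope on length was also present between libraries of the same group. The difference of Ctrl MO 1 from Ctrl MO 2 correlated with length at -0.42 across the 66 members (Spearman -0.50), and that of Reg1-MOs 1 from Reg1-MOs 2 at -0.66 (Spearman -0.70). It was not particular to the decay genes: over 9463 genes with 50 or more reads on average, the 4 Pearson correlations were -0.33 for Reg1-MOs 1 against the controls, 0.0091 for Reg1-MOs 2 against the controls, -0.32 between the controls and -0.53 between the Reg1-MOs libraries. The first-numbered library of each group was thus lower for long transcripts than the second. No measure of RNA integrity is in the files, and the part of RNA quality in this pattern was not tested.

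**Figure D4:**
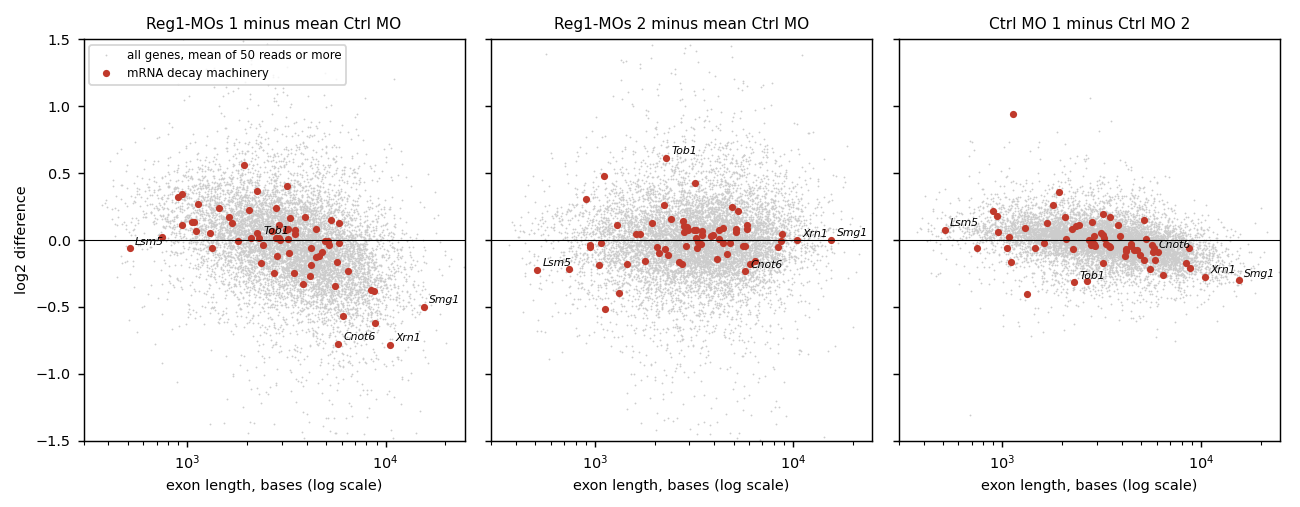
Log2 difference against exon length (log axis) for Reg1-MOs 1 and Reg1-MOs 2, each minus the Ctrl MO mean, and for Ctrl MO 1 minus Ctrl MO 2; red points are 65 members, grey points 9463 genes with 50 or more reads on average, of which 60, 50 and 14 lie outside the axes. Long members such as Smg1 and Xrn1 lie below 0 in the first panel and in the control panel and on the 0 line for Reg1-MOs 2.

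Which members passed depended on the library left out. Without Reg1-MOs replicate 2, 5 members fell (Xrn1, Cnot6, Cnot6l, Ddx6 and Dcp2), which is 7.58% of the set beside 7.74% of all genes. Without Ctrl MO replicate 1, 2 fell (Xrn1 and Cnot6), 3.03% beside 4.09%. Both shares of members were thus no higher than those of all genes. The count that fell was 0 when Ctrl MO replicate 2 or Reg1-MOs replicate 1 was left out, and the count that rose was 0 without any 1 of the 4. When the trend on length was subtracted within each library, a step added after seeing the data, 3 members rose and 3 fell by limma. Those that rose were Pabpc4 (0.43, adjusted p = 0.0085), Smg9 (0.30, adjusted p = 0.0134) and Btg1 (0.25, adjusted p = 0.0056), and those that fell were Ddx6 (-0.29, adjusted p = 0.0164), Cnot6 (-0.43, adjusted p = 0.0215) and Btg2 (-0.21, adjusted p = 0.0241). The same step raised the calls over all genes to 1330 higher and 1217 lower, from 691 and 670. The raised counts are 12% and 11% of the 11088 genes with a length, beside 4.55% of the members in each direction. The subtraction also takes out any group difference that follows length. It was not counted in the degrees of freedom, so the adjusted p-values after it may be too small.

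Genes that work beside the machinery were taken as 5 lists. Of their 68 genes, all in the table, 3 rose and 3 fell, 8.82% beside the 12.2% of all genes. Without adjustment 16 had p under 0.05 (23.5% beside 29.4%), and the median was -0.0092. Among 14 exosome cofactors, Zfc3h1, of the complex that targets poly(A) RNA in the nucleus to the exosome, fell by 0.58 (SE 0.13, limma adjusted p = 0.0255), at 80.03 and 92.3 with Ctrl MO against 51.0 and 64.6 with Reg1-MOs. This call ended without Reg1-MOs replicate 1 (adjusted p = 0.114). Among 9 terminal uridylyltransferases and further deadenylases, Pde12, a deadenylase of mitochondria, was at 150 and 148 against 99.3 and 107 and fell by 0.53 (SE 0.07, limma adjusted p = 0.00467). It kept its side of the threshold without each of the 4 libraries. Without a variance trend none of these 6 calls passed (adjusted p = 0.0585 to 0.139).

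Of 13 genes of the exon junction complex and translation termination, 2 rose. Pnrc1, related to a protein that links UPF1 to decapping, had 214 and 223 with Ctrl MO against 289 and 298 with Reg1-MOs (0.43, SE 0.06, limma adjusted p = 0.00715), a call that ended without Ctrl MO replicate 1 (adjusted p = 0.0697). Gspt1, the termination factor eRF3a, had 255 and 251 against 300.1 and 312 (0.27, SE 0.06, limma adjusted p = 0.0329), a call that ended without any 1 library (adjusted p = 0.0538 to 0.338). None of 15 genes of microRNA silencing and translational repression passed (limma, 3 with unadjusted p under 0.05), at a median of -0.086.

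Of 17 transcripts known as natural substrates of nonsense-mediated decay, 1 rose and 1 fell, 11.8% beside the 12.2% of all genes, at a median of -0.054. Gadd45a, a stress gene, had 18.1 and 18.0 with Ctrl MO against 23.9 and 23.3 with Reg1-MOs (0.39, SE 0.09, limma adjusted p = 0.0346). Srsf2, a splicing factor that controls its own mRNA through this pathway, had 137 and 131 against 113 and 109 and fell by 0.27 (SE 0.07, limma adjusted p = 0.0428). Both calls ended without any 1 of the 4 libraries, at adjusted p-values of 0.0574 to 0.207 for Gadd45a and 0.0682 to 0.368 for Srsf2, and that of Srsf2 also with quantile normalization (0.0592) and equal totals (0.0610). The values are totals per gene and do not separate a form that is a substrate from other forms of the same gene. Transcript levels do not measure decay rates, which these libraries do not hold.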

How the data were processed

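Directional libraries of poly(A) RNA were sequenced on a NextSeq, as the labels' protocols state. HISAT2 1.6.3, cutadapt, FastQC and mm10 were used, per the submitters' processing notes; how reads were counted, with or without strand, and normalized is not given in the sources used here. A table of log2 values for 11111 genes in 4 libraries was deposited by the authors. Its values are the log2 of reads plus 0.5, scaled by 1 factor per library: 100% of the recovered reads lay within 0.01 of a whole number. Library sizes implied by the scale were 17767798 to 19377000.

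The test was limma 3.58.1 in R 4.3.3, with a variance trend, on all deposited log2 values with group as the only term, two-sided, with 2 residual and 5.47 prior degrees of freedom. An exact permutation test of 2 against 2 libraries cannot go below p = 0.333 and was not used. The script was tested on simulated data. Positions and exon lengths come from GENCODE M21 (GRCm38), which held all 66 members; promoters come from RefSeq. Of the members, 15 share exon sequence with another gene, 13 on the opposite strand and 3 on the same strand. 1 member is in the fit and in the counts over all members but is not reported here by name. Any other member could be named; of the other lists, those past the threshold were. Members and lists were chosen with earlier results of these data known. Alternatives were another variance model, quantile normalization, equal totals, an offset of 8 reads, a minimum mean of 50 reads, a replicate block, each library left out, and, added after seeing the data, removal of the length trend.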

Additional observations from a re-analysis of the deposited data

How the results depend on the processing

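The count of members that rose (1) was 0 without a variance trend, 2 with quantile normalization, 2 with equal totals, 3 with the length trend removed and 0 to 0 with each library left out. The count that fell (0) was 3 with the length trend removed and 0 to 5 with each library left out. Their median log2 fold change moved to 0.032 with equal totals, by more than the replicate SD of 0.017, and was -0.0082 to 0.016 with each library left out. Genes of the whole table that rose numbered 195 without a variance trend, 1330 with the length trend removed and 249 to 530 with each library left out. Those that fell numbered 182, 1217 and 258 to 860. Leaving out a library also leaves 1 residual degree of freedom, with the lone library of a group assumed to vary like the others; the cause of the other shifts was not tested.

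Same-numbered libraries deviated together at a correlation of 0.31 over 9476 genes, but no label pairs them. With a replicate block 5 members rose (Pabpc4, Smg9, Btg1, Lsm8 and Exosc10) and 10 fell (Cnot6, Ddx6, Xrn1, Smg1, Cnot1, Btg2, Cnot6l, Dcp2, Dcp1a and Tob2), 7.58% and 15.2% of the set, and 1532 genes of the table rose and 1891 fell, 13.8% and 17.0%.

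Of the members, 38 kept their sign in every alternative and 28 did not, the largest of these at a main size of 0.29 (Cnot6l), and 15 passed the threshold in at least 1 alternative. The sign turned with equal totals for Cnot3 (0.015), Lsm14b (0.0068) and Lsm12 (0.016), with quantile normalization for Exosc7 (0.017) and Lsm12 (0.0060), and with the length trend removed for Edc4 (0.0020), Dcps (-0.018), Exosc3 (-0.014) and Lsm10 (-0.042). With each library left out, the log2 fold changes that turned sign ran as follows: Cnot6l -0.62 to 0.042, Cnot7 -0.33 to 0.028, Cnot4 -0.0084 to 0.24, Cnot11 -0.030 to 0.14, Cnot8 -0.10 to 0.012, Cnot10 -0.045 to 0.15, Cnot3 -0.12 to 0.10, Dis3 -0.040 to 0.11, Dis3l -0.060 to 0.076, Patl1 -0.19 to 0.0076, Dcp1b -0.012 to 0.17, Dcps -0.18 to 0.24, Exosc4 -0.21 to 0.048, Exosc3 -0.023 to 0.14, Exosc1 -0.034 to 0.16, Exosc7 -0.19 to 0.14, Lsm4 -0.050 to 0.34, Lsm3 -0.22 to 0.026, Lsm7 -0.59 to 0.35, Lsm1 -0.20 to 0.10, Lsm10 -0.050 to 0.13, Lsm14b -0.045 to 0.013, Lsm12 -0.067 to 0.053, Pan3 -0.021 to 0.11, Upf3a -0.049 to 0.22, Upf2 -0.067 to 0.086. Lsm7 had the fewest reads of the members, 43.0 on average, and the widest 95% interval, -0.99 to 0.74; the part of depth in that width was not tested.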
